A study of Sus scrofa with 14 samples.

Results

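Luminal epithelial nuclei of the pig mammary gland that met a rule for secretory cells are described here across late gestation, lactation and involution. Low XDH and LALBA went against that name in PI2 replicate 1, both PI7 libraries and in part L20 replicate 2 and G90 replicate 1, as described below. In PI2 replicate 1 the markers were mixed, with ELF5 and CSN1S1 above both L20 libraries. A nucleus was taken as a member when it had at least 300 detected genes, at least 1 UMI in 2 or more of EPCAM, XDH, ELF5, CSN1S1 and LALBA with XDH or ELF5 among them, and no UMI in ESR1, PGR, TP63, TOP2A, COL1A1, PTPRB, CD163, CD3E and ADIPOQ. A UMI, or unique molecular identifier, marks 1 captured RNA molecule. The rule found 33707 members among the 127926 gland nuclei with at least 300 genes (26.3%), out of 169223 barcodes of gland and milk in the whole series. Members were thus chosen by the UMIs of these 14 genes, so their levels and the share of members are given below as a description, with no test.

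The nuclei came from snap-frozen mammary tissue of multiparous sows, with 1 library per sow and 2 libraries per stage. Tissue was collected on day 90 of gestation (G90), on days 0 and 20 of lactation (L0 and L20), and 2 and 7 days post natural involution (PI2 and PI7). The labels name no transgene and no drug. Replicate numbers name the libraries within a stage, so the spread between libraries is the spread between 2 sows.

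Secretory luminal cells line the alveoli and make milk. They secrete caseins and whey proteins through the Golgi, make lactose there, and release fat as droplets wrapped in the apical membrane. Prolactin acting through STAT5, together with ELF5, is known to drive their differentiation at the end of gestation, and loss of suckling leads to their regression under STAT3 signalling. Among the genes that chose the members, XDH encodes xanthine dehydrogenase, a protein of the fat globule coat, ELF5 a transcription factor of the alveolar lineage, EPCAM an epithelial adhesion molecule, CSN1S1 the alpha-s1-casein and LALBA alpha-lactalbumin, the regulatory subunit of lactose synthase. ESR1 and PGR mark the hormone-sensing luminal lineage, and the other excluding genes mark basal, dividing, stromal, vascular, immune and fat cells.

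STAT5 binds the sequence TTCNNNGAA, and the 250 bases before the start of 4 milk protein genes are shown because these genes define the class or stand among its milk genes. The sequences are those of RefSeq genes on Sscrofa11.1, read in the direction of the gene, and capitals mark each match to TTCNNNGAA, a motif that reads the same on both strands. They cover chr8:66887981-66888230 (plus strand) for CSN1S1, chr8:66922637-66922886 (minus strand) for CSN2, chr8:67098881-67099130 (plus strand) for CSN3 and chr5:79216792-79217041 (minus strand) for LALBA.
CSN1S1: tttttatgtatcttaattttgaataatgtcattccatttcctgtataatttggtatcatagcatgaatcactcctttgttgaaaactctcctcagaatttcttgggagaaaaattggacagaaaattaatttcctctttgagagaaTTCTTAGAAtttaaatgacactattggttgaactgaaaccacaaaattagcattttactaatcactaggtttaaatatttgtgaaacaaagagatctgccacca
CSN2: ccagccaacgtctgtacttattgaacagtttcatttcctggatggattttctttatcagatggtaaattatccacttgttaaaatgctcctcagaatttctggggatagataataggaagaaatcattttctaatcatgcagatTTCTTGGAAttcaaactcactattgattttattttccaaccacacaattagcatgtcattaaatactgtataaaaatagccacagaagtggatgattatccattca
CSN3: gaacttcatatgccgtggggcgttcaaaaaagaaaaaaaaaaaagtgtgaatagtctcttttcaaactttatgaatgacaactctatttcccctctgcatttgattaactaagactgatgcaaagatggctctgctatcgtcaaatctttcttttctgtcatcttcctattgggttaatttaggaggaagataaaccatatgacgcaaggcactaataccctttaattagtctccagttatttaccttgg
LALBA: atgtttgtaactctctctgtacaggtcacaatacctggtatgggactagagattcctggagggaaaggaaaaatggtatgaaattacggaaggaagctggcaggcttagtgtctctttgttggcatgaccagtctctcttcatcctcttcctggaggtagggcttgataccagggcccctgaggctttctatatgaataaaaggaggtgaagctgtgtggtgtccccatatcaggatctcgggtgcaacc
The match of CSN1S1, TTCTTAGAA, began 104 bases before the start of the gene (position -104), and that of CSN2, TTCTTGGAA, at position -106. The windows of CSN3 and LALBA, and that of XDH at chr3:107986810-107987059 (plus strand), held no match. Over all protein-coding genes on chromosomes, 1194 of 19531 windows of this length held the motif (6.11%). Of the 177 genes called higher at L0 than in the other 4 stages, described below, 113 could be matched to such a window by symbol, and 7 of these held the motif (6.19%). A match is a description of letters and no measure of binding.

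Libraries held 9400 to 18694 nuclei with at least 300 genes and 18962138 to 53165191 UMIs. Members numbered 217 to 9966 per library, with a median of 1702 to 3491 UMIs and 956 to 1807 genes per nucleus, and their summed UMIs ranged from 875634 in L20 replicate 2 to 25742937 in G90 replicate 2. Pairs of libraries shared 0 to 38 member barcodes (median 4). The median mitochondrial share of members was 0.0310% to 0.322%, and 80 members lay above 25%. Levels are given as CPM, the UMIs of a gene per 1000000 UMIs summed over the members of a library, so the precision is lowest in L20 replicate 2, where 1 UMI is worth over 1 CPM.

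The 2 libraries of L20 and the 2 of PI2 did not resemble each other, and this bears on every comparison that uses those stages. Over the 11917 genes with a mean of at least 5 CPM, Spearman's rho between libraries of the same stage was 0.910 at G90, 0.964 at L0 and 0.911 at PI7, but 0.765 at L20 and 0.770 at PI2. L20 replicate 1 was closest to PI2 replicate 2 (0.921). L20 replicate 2 was closest to PI7 replicate 1 (0.900), and PI2 replicate 1 to PI7 replicate 2 (0.945). Results are therefore also given without L20 replicate 2 and PI2 replicate 2, an alternative added once the data had been seen. Whether this split comes from the sows, their stage, the handling of the tissue or exchanged labels cannot be told apart here, and the labels were kept as given.

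Members made up 14.8% and 53.3% of nuclei at G90, 57.0% and 57.3% at L0, then 22.6% and 1.42% at L20, 16.3% and 29.2% at PI2, and then 5.19% and 13.2% at PI7. The mean share was 57.2% ± 0.215 at L0 (SD, n = 2), against 34.0% ± 27.2 at G90, 11.99% ± 15.0 at L20, 22.8% ± 9.15 at PI2 and 9.18% ± 5.63 at PI7 (each SD, n = 2). Both L0 libraries lay above the other 8 libraries, and the pairs of G90, L20 and PI2 overlapped one another. Both PI7 libraries lay below those of G90 and PI2 and within the range of L20. Fewer cells of this kind and less RNA of the markers per nucleus cannot be told apart in such shares. Without CSN1S1 and LALBA in the rule the mean share at L0 was 41.7%, and with nuclei thinned to 1000 UMIs it was 64.8%. In both settings G90 replicate 2 lay above both L0 libraries. It stood at 45.3% against 44.8% and 38.6% without these genes, and at 70.3% against 69.0% and 60.6% with thinning.

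**Figure D1:**
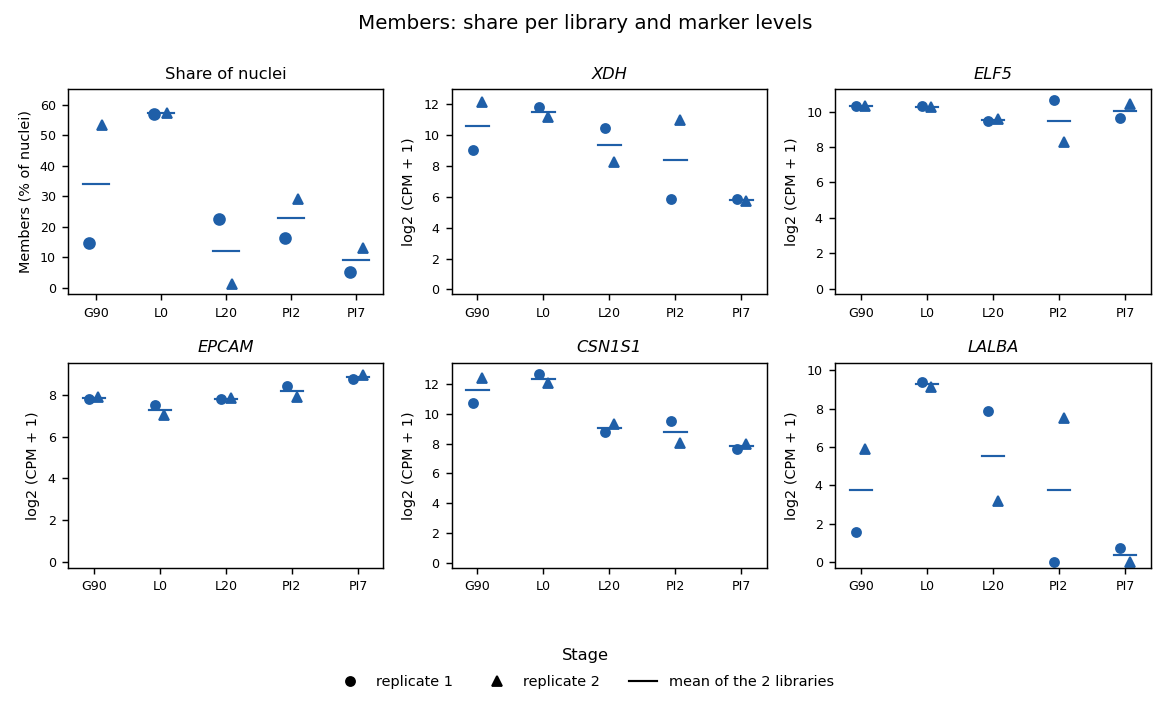
Share of nuclei that met the rule, in percent, and levels of the 5 marker genes in the members as log2 (CPM + 1), by stage. Circles are replicate 1, triangles replicate 2, and lines the mean of the 2 libraries; XDH lay near 50 CPM in PI2 replicate 1 and both PI7 libraries and at 1992 CPM in PI2 replicate 2.

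Members entered the class by different markers in different libraries. Of all members, 12437 had UMIs of exactly 2 markers, 21270 of 3 or more, and 20080 had both XDH and ELF5. The members with 3 or more markers were 83.2% in G90 replicate 2 and 81.9% in L0 replicate 1, but 15.6% in PI7 replicate 2 and 16.5% in PI7 replicate 1. XDH was seen in 95.9% of members in G90 replicate 2 and in 9.50% in PI7 replicate 2, while ELF5 was seen in 47.2% in PI2 replicate 2 and in 99.2% in PI2 replicate 1. Just outside the rule stood 12331 nuclei with XDH or ELF5 as their only marker and 11259 that met the marker rule but carried exactly 1 UMI of an excluding gene. The median depth of the former was 664 to 2172 UMIs per library, against 1144 to 3330 UMIs for members with exactly 2 markers.

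XDH measured 529 and 4506 CPM at G90, 3594 and 2346 at L0, then 1428 and 306 at L20, 57.3 and 1992 at PI2 and then 56.6 and 52.0 at PI7. It was high in both L0 libraries, in G90 replicate 2, L20 replicate 1 and PI2 replicate 2, and low in PI2 replicate 1 and at PI7, so that the pairs of L20 and PI2 did not hold together. ELF5 measured 1267 and 1254 CPM at G90, 1266 and 1208 at L0, then 707 and 756 at L20, 1586 and 307 at PI2 and then 794 and 1375 at PI7, and its lowest value stood in PI2 replicate 2, where XDH was high. EPCAM measured 221 and 242 CPM at G90, 181 and 129.6 at L0, then 224 and 228 at L20, 345 and 239 at PI2 and then 433 and 491 at PI7, lowest at L0 and highest at PI7.

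CSN1S1 measured 1690.2 and 5275 CPM at G90, 6312 and 4124 at L0, then 429 and 645 at L20, 740.1 and 258 at PI2 and then 202 and 255 at PI7. G90 and L0 lay above all 6 later libraries. LALBA measured 2.01 and 58.9 CPM at G90, 679 and 567 at L0, then 238 and 7.99 at L20, 0 and 181 at PI2 and then 0.643 and 0 at PI7, which placed both L0 libraries above all others. A count of 0 allows up to 0.593 CPM in PI2 replicate 1 and 0.843 CPM in PI7 replicate 2 (3 counts per library, counting error only). The 9 excluding genes were at 0 in every member by the rule.

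CSN1S1 in PI2 replicate 1 thus lay above both L20 libraries and PI2 replicate 2. XDH and LALBA, however, were low in the members of PI2 replicate 1 and of both PI7 libraries. XDH was seen in 9.80%, 13.8% and 9.50% of them (5.57%, 6.61% and 4.84% after thinning to 1000 UMIs), and nearly all met the rule through ELF5, seen in 99.2%, 97.9% and 99.1%, with EPCAM in 55.7%, 80.0% and 78.6% or CSN1S1 in 58.9%, 26.4% and 29.6%. The median depth of these members was 2343, 3021 and 2479 UMIs. In XDH, L20 replicate 2 (42.4% of members, 22.4% after thinning) and G90 replicate 1 (50.0%) stood between them and the rest. LALBA was seen in 1.38% of members in L20 replicate 2 and 0.649% in G90 replicate 1, and CSN1S1 in 53.0% and 78.0%. Their median depths were 3491 and 3265 UMIs. In PI2 replicate 2, XDH was seen in 94.8%. For PI2 replicate 1, both PI7 libraries, L20 replicate 2 and G90 replicate 1, "members" means nuclei that met the rule, and no other name is given to them. KIT, a receptor known from luminal progenitors, measured 878 and 1486 CPM at L0, 1437 CPM in PI2 replicate 1 and 1110.3 and 876 CPM at PI7. It thus did not set PI2 replicate 1 and PI7 apart from L0. ALDH1A3 of the same list, described below, was higher in PI2 replicate 1 and at PI7 than at G90 and L0, as it was in both L20 libraries.

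Levels were compared between stages with edgeR's quasi-likelihood test on the UMIs summed over the members of each library, in 1 fit of all 10 libraries. A gene counted as called when its p, adjusted after Benjamini-Hochberg over 16640 genes, was under 0.05 and its levels differed by more than 2-fold. Fold changes are given as log2 after TMM scaling, which sets libraries to a common level by the bulk of their genes. A test of any difference between the 5 stages, which has no fold threshold, called 11 genes (0.0661% of those tested), and 9 of them are described here. They formed 4 groups by level, which were named after the values were seen: highest at G90, low until L0 and high later, low at G90 alone, and highest at L0.

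The genes highest at G90 were CHODL, PAPLN, NTRK3 and RSPO1. CHODL (chondrolectin, 13:182409113-182829797), a membrane protein with a C-type lectin domain, measured 221 and 250.2 CPM at G90, 24.8 and 16.9 at L0, then 8.56 and 21.7 at L20, 11.06 and 11.6 at PI2 and then 8.04 and 9.55 at PI7 (adjusted p = 0.0184, edgeR). PAPLN, papilin of the extracellular matrix (7:96584894-96622487), measured 824 and 1504 CPM at G90, 157 and 221 at L0, then 14.6 and 20.6 at L20, 153 and 37.5 at PI2 and then 28.9 and 10.4 at PI7 (adjusted p = 0.0405, edgeR). In both genes the G90 libraries lay above all 8 others, and PAPLN held intermediate levels at L0 and in PI2 replicate 1.

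NTRK3, the receptor of neurotrophin-3 (1:191535262-191941675), measured 189 and 117 CPM at G90, 15.3 and 21.4 at L0, then 4.44 and 9.14 at L20, 23.9 and 6.69 at PI2 and then 15.1 and 13.8 at PI7 (adjusted p = 0.0438, edgeR). RSPO1, a secreted amplifier of WNT signalling (6:93664839-93690328), measured 68.7 and 39.2 CPM at G90, 2.98 and 4.39 at L0, then 0.951 and 1.14 at L20, 4.35 and 1.16 at PI2 and then 1.93 and 0.562 at PI7 (adjusted p = 0.0405, edgeR). In both, no library outside G90 reached the lower G90 value, and both L20 libraries lay below both L0 libraries. For RSPO1 this order is not resolved in L20 replicate 2, where a count of 0 allows up to 3.43 CPM.

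GCLC and GRAMD1B were low at G90 and L0 and high from L20 on. GCLC, the catalytic subunit of the enzyme that limits glutathione synthesis (7:27209565-27253535), measured 25.6 and 19.0 CPM at G90, 16.9 and 18.9 at L0, then 174 and 193 at L20, 215 and 218 at PI2 and then 264 and 342 at PI7 (adjusted p = 0.0213, edgeR). GRAMD1B, which moves cholesterol from the plasma membrane to the endoplasmic reticulum (9:50259020-50507328), measured 36.5 and 20.4 CPM at G90, 37.0 and 49.1 at L0, then 508 and 540.2 at L20, 156 and 229 at PI2 and then 259 and 435 at PI7 (adjusted p = 0.0438, edgeR). All 6 libraries of L20, PI2 and PI7 lay above all 4 of G90 and L0 in both genes, also in the stages whose libraries differed most in XDH.

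FOXP2, a forkhead transcription factor (18:31335102-31890523), was the one called gene that was low at G90 alone. It measured 48.8 and 28.3 CPM at G90, 703 and 587 at L0, then 448 and 403 at L20, 137 and 90.9 at PI2 and then 348 and 250.1 at PI7 (adjusted p = 0.0405, edgeR). Every library after G90 lay above both G90 libraries, with the lowest levels of those at PI2.

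PDE7A and POC1A were highest at L0. PDE7A, a phosphodiesterase of cyclic AMP (4:68777910-68896583), measured 136 and 139.7 CPM at G90, 961 and 716 at L0, then 202 and 211 at L20, 160.2 and 126 at PI2 and then 159 and 215 at PI7 (adjusted p = 0.0438, edgeR). POC1A, a centriole protein (13:34227884-34308099), measured 25.9 and 37.1 CPM at G90, 174 and 153 at L0, then 19.5 and 19.4 at L20, 22.5 and 20.2 at PI2 and then 28.3 and 14.6 at PI7 (adjusted p = 0.0438, edgeR). Both L0 libraries lay above all others in both genes.

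**Figure D2:**
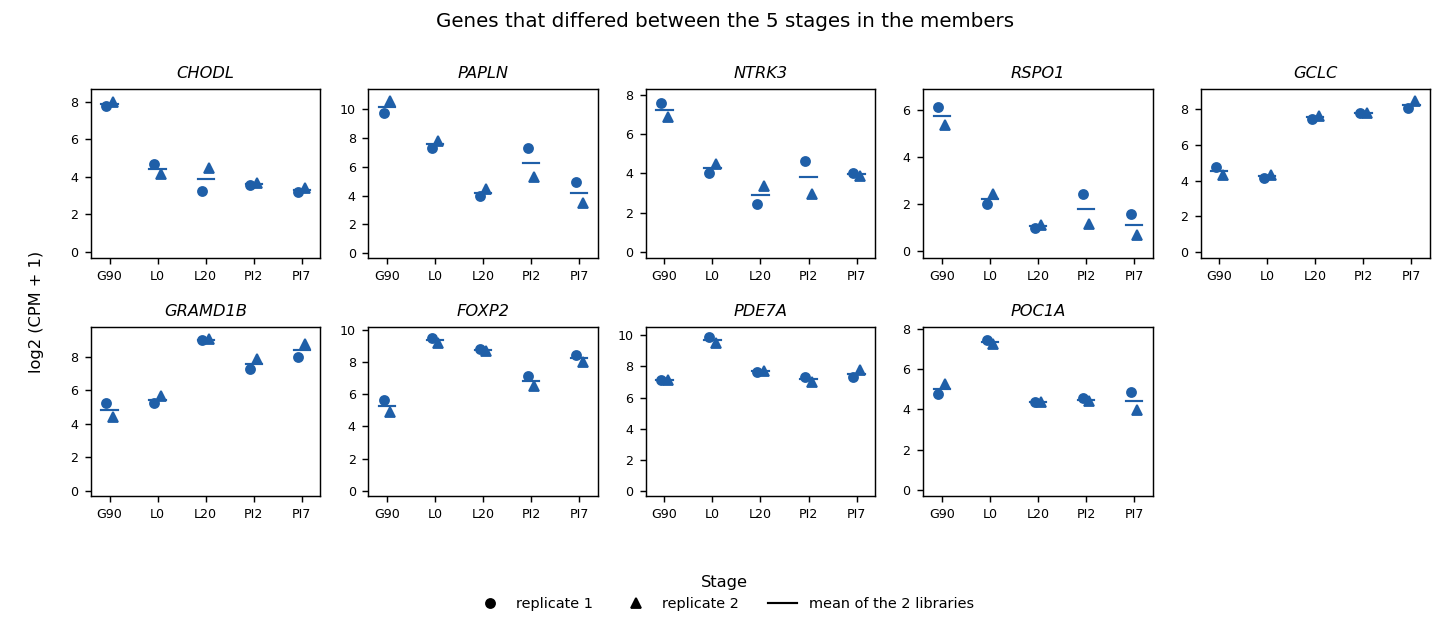
Levels of 9 genes that differed between the 5 stages (edgeR, adjusted p under 0.05), as log2 (CPM + 1) by stage. Circles are replicate 1, triangles replicate 2, and lines the mean of the 2 libraries; CHODL, PAPLN, NTRK3 and RSPO1 were highest at G90, GCLC and GRAMD1B were high from L20 on, and PDE7A and POC1A peaked at L0.

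The number of genes called over the 5 stages depended on single libraries. It was 0 without L0 replicate 1, L0 replicate 2, PI7 replicate 1 or PI7 replicate 2, 4 without G90 replicate 2 and 8 without G90 replicate 1. It was 21 without L20 replicate 1, 62 without L20 replicate 2, 562 without PI2 replicate 1, 310 without PI2 replicate 2 and 1781 without both L20 replicate 2 and PI2 replicate 2. Before adjustment 2150 genes (12.9%) had a p under 0.05, and DESeq2 called 1467.

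Parturition and the onset of lactation were addressed by L0 against G90. FOXP2 rose by 4.32 on the log2 scale (SE 0.438, adjusted p = 0.0274, edgeR), from a mean of 38.6 ± 14.5 CPM at G90 to 645 ± 81.4 CPM at L0 (SD, n = 2 each). FOXP2 was the only gene called (0.00601% of those tested), while 1912 genes had an unadjusted p under 0.05 (11.5%) and DESeq2 called 589, 420 higher and 169 lower. No gene was called without G90 replicate 1, G90 replicate 2, L0 replicate 1, L0 replicate 2, PI7 replicate 1 or PI7 replicate 2. There were 13 calls without L20 replicate 1 and 13 without L20 replicate 2, 116 without PI2 replicate 1, 123 without PI2 replicate 2, and 738 without both L20 replicate 2 and PI2 replicate 2, of which 489 were higher.

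The next genes by p did not pass the test. RIMS1, a vesicle priming protein, measured 18.9 and 13.7 CPM at G90 and 112 and 139 at L0, with a log2 change of 3.19 and an adjusted p of 0.0699 (edgeR). FBXO32, a ubiquitin ligase subunit of muscle wasting, measured 41.0 and 20.2 CPM at G90 and 224 and 192 at L0. GUCY1B1, a subunit of the nitric oxide receptor, and ECHDC1, which removes faulty products of fatty acid synthesis, had log2 changes of 3.05 and 3.07. Separation of the 4 libraries by stage was a condition for naming these genes, which 17.5% of all genes met in this direction.

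In the other direction, CHODL had a log2 change of -3.30 (adjusted p = 0.0717, edgeR). AKAP11, an anchor of protein kinase A, measured 373 and 399.9 CPM at G90 and 42.0 and 49.4 at L0 and had a log2 change of -2.86. LRP4, a co-receptor of the LDL receptor family, measured 74.1 and 111 CPM at G90 and 6.31 and 5.71 at L0, with -3.75. GNL3, a nucleolar protein of proliferating cells, measured 98.4 and 114 CPM at G90 and 20.2 and 18.4 at L0, with -2.25, and IPCEF1 had a log2 change of -3.03. None of the 5 passed the threshold. That the libraries of G90 and L0 did not overlap was a condition for naming them, which 41.0% of all genes met in this direction.

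Cell cycle genes were lower at L0 than at G90 in most cases, without a call. Of 19 tested, 18 had a log2 change below 0 and 15 had both L0 libraries under both G90 libraries, where 41.0% of all genes did. Their median was -1.28 against -0.147 over all genes, and it stayed between -1.48 and -1.20 in every setting run. The list summed to 466 and 737 CPM at G90 and 235 and 328 CPM at L0 in members, and to 643 and 1239 CPM at G90 and 344 and 635 CPM at L0 in non-epithelial nuclei, so it was lower at L0 in both. CCND1, cyclin D1, measured 81.5 and 40.6 CPM at G90 and 7.42 and 8.60 at L0, and SMC4, a subunit of condensin, measured 100.2 and 166 CPM at G90 and 92.0 and 101 at L0. TOP2A was at 0 by the rule, so members in division were left out at every stage in so far as they carried it.

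Interferon-stimulated genes had the lowest list median at L0 against G90, and it rested on 1 library. The median was -3.42 and all 21 genes tested lay below 0, but 3 had both L0 libraries under both G90 libraries, where 41.0% of all genes did. OAS2, which makes the activator of RNase L, measured 52.7 and 1458 CPM at G90, 31.2 and 44.8 at L0, then 89.4 and 60.5 at L20, 95.8 and 681 at PI2 and then 26.4 and 59.6 at PI7, and IFI44L measured 89.7 and 727 CPM at G90, 363 and 249.7 at L0, then 142 and 144 at L20, 136 and 134 at PI2 and then 63.7 and 186 at PI7. G90 replicate 2 was high in both and G90 replicate 1 was not, and over all settings the list median ran from -4.40 to 1.55.

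From L0 to L20 no gene was called (0%), with 1819 at an unadjusted p under 0.05 (10.9%). DESeq2 called 452, 242 higher and 210 lower. Leaving out PI2 replicate 1 gave 65 calls, PI2 replicate 2 gave 66, and leaving out both L20 replicate 2 and PI2 replicate 2 gave 815, of which 605 were higher, with 1 library left at L20 that was assumed to vary like the others. GCLC (log2 change 3.12, adjusted p = 0.143, edgeR), GRAMD1B (3.37), RBPMS (2.19), GPR39 (3.60) and IL1R1 (3.66) led the genes with higher levels at L20. IL1R1, the receptor of interleukin-1, measured 58.9 and 18.0 CPM at G90, 65.4 and 24.1 at L0, then 619 and 699 at L20, 274 and 134 at PI2 and then 785 and 715 at PI7. GPR39, a zinc-sensing receptor, measured 13.7 and 10.9 CPM at L0 and 145 and 211 at L20. Both L20 libraries lay above both L0 libraries in each, a condition for naming them that 27.7% of all genes met.

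Lower at L20, and also not called, were POC1A (log2 change -3.27), PAEP (-3.88), PDE7A (-2.24) and TTLL7 (-2.57), all at an adjusted p of 0.170 (edgeR). PAEP, the lipocalin of the beta-lactoglobulin family, measured 6027 and 5358 CPM at G90, 5209 and 6229.9 at L0, then 632 and 218 at L20, 2929 and 1783 at PI2 and then 346 and 352 at PI7. Its L20 and PI7 libraries lay below all G90, L0 and PI2 libraries. Of 19 genes of cathepsins and lysosomes, 17 had a log2 change above 0 and 13 did not overlap between stages in that direction, where 27.7% of all genes did, with a median of 0.89 against 0.0903 over all genes (0.42 to 1.19 over all settings). All 8 macrophage markers (median 1.31) and all 7 fibroblast markers (median 2.26) tested were also above 0. The list summed to 691 and 608 CPM at L0 and 1596 and 1251 CPM at L20 in members, and to 3882 and 2362 CPM at L0 and 4694 and 3476 CPM at L20 in non-epithelial nuclei. The part of other cells in these values was not tested. CTSC, a lysosomal dipeptidyl peptidase, measured 78.4 and 56.7 CPM at L0 and 191 and 102 at L20, CTSB 45.1 and 34.0 CPM at L0 and 203 and 135 at L20 and PSAP, the precursor of saposins, 54.2 and 46.4 CPM at L0 and 75.9 and 176 at L20.

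The step from lactation into involution was addressed by PI2 against L20, and no gene was called (0%; 658 at an unadjusted p under 0.05, 3.95%; 10 by DESeq2, all lower). PAEP, AMOTL2, ZDHHC4 and PAPLN were among the genes of smallest p that were higher at PI2, with log2 changes of 2.42, 2.20, 1.63 and 2.46. CPSF6, FOXP2, FHIT, ITGAM and NRG2 had it among the lower genes, with -5.38, -1.86, -1.81, -2.03 and -3.57. All had an adjusted p of 0.922 (edgeR). Without both L20 replicate 2 and PI2 replicate 2, 56 genes were called, but this leaves 1 library in each of the 2 stages, so the spread came from the libraries of G90, L0 and PI7 alone and both were assumed to vary like them.

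PI7 against PI2 likewise called no gene (0%; 533 at an unadjusted p under 0.05, 3.20%; 8 by DESeq2, 6 higher and 2 lower). PDK4, the kinase that holds back pyruvate dehydrogenase, measured 88.9 and 91.6 CPM at PI2 and 803 and 647 at PI7 and had a log2 change of 2.77. CPSF6 (4.67), ACP5 (4.99), FHIT (1.70) and MMP9 (5.28) followed. PAEP (-2.94), DOK5 (-1.69), LRIG1 (-2.01), IDI1 (-3.94) and PAPLN (-2.42) had the smallest p among the lower genes. The adjusted p of all 10 was 0.997 (edgeR). ACP5, MMP9 and ITGAM are known from macrophages, and all 8 macrophage markers tested had a log2 change above 0 at PI7 against PI2 (median 1.69) and below 0 at PI2 against L20 (median -1.41). Their part in these values was not tested.

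Cholesterol synthesis genes were lower at PI7 than at PI2 in 16 of 17 cases, with a median of -1.62 against -0.0860 over all genes, and 8 had both PI7 libraries under both PI2 libraries, where 9.54% of all genes did. None was called, and without L20 replicate 2 and PI2 replicate 2 the median was -0.41. IDI1, which makes dimethylallyl diphosphate, measured 16.0 and 75.8 CPM at PI2 and 3.86 and 3.65 at PI7, and LSS, lanosterol synthase, measured 50.4 and 106 CPM at PI2 and 18.0 and 32.9 at PI7. The 2 libraries of PI2 differed more from each other in IDI1 than PI2 replicate 1 did from PI7.

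The members at L0 stood apart from the mean of the other 4 stages in 197 genes (1.18% of those tested), 177 higher (1.06%) and 20 lower (0.120%). LALBA was seen in 41.9% and 39.9% of members at L0. In G90 replicate 1, L20 replicate 2, PI2 replicate 1 and both PI7 libraries it was seen in at most 1.38%. The part of a different mix of nuclei that met the rule in these differences was not tested. DESeq2 called 867, 530 higher and 337 lower, among them 195 of the 197. Leaving out L20 replicate 2 and PI2 replicate 2, chosen after the data were seen, takes the spread within those stages out of the fit. Its calls are therefore no separate support for the 197. Both L0 libraries were needed, with 1 call without L0 replicate 1 and 9 without L0 replicate 2. There were 59 without G90 replicate 1, 15 without PI7 replicate 1 and 15 without PI7 replicate 2, and 508 without PI2 replicate 1 and 395 without PI2 replicate 2. Leaving CSN1S1 and LALBA out of the rule kept 194 of the 197.

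Milk protein genes were among those higher at L0, and CSN1S1 and LALBA of the same list took part in choosing the members. CSN3, kappa-casein, which keeps casein micelles in solution (8:67099131-67109112), measured 276 and 930.3 CPM at G90, 2407 and 1884 at L0, then 456 and 210.1 at L20, 184 and 372 at PI2 and then 207 and 202 at PI7. It rose by 2.90 on the log2 scale (SE 0.487, adjusted p = 0.0275, edgeR), and both L0 libraries lay above all others. PAEP rose by 2.50 (SE 0.396, adjusted p = 0.0243, edgeR), though its G90 libraries were as high as those of L0. CSN2, beta-casein, measured 162 and 2705 CPM at G90, 1905 and 2092 at L0, then 270.4 and 12.6 at L20, 6.12 and 586 at PI2 and then 3.54 and 0 at PI7, with a log2 change of 4.43 (SE 1.28) that was not called (adjusted p = 0.142, edgeR), and G90 replicate 2 lay above both L0 libraries. Of 14 milk protein genes listed, 10 were found by symbol, 7 were tested, and CSN3 and PAEP were called, with a median log2 change of 1.96 against -0.09 over all genes (1.18 to 2.28 over all settings).

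SPP1, osteopontin, was the milk protein gene with the opposite order. It measured 55.2 and 29.5 CPM at G90, 76.0 and 14.5 at L0, then 738 and 339 at L20, 182 and 89.0 at PI2 and then 2057 and 529 at PI7, and all 6 later libraries lay above those of G90 and L0, with no call. In non-epithelial nuclei SPP1 measured 114 and 123 CPM at G90, 39.3 and 0 at L0, then 1216 and 405 at L20, 85.7 and 280.4 at PI2 and then 2196 and 492 at PI7, which lay near or above the members' values at L20 and PI7. LTF, lactoferrin, measured 200.1 and 129 CPM at G90, 299.7 and 392 at L0, then 773 and 84.5 at L20, 95.0 and 658 at PI2 and then 87.8 and 189 at PI7, and its libraries of L20 and PI2 differed more within a stage than between stages.

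Fat genes were led by CD36, the fatty acid translocase of the milk fat globule membrane (9:99685748-99782296). It measured 8.87 and 107 CPM at G90, 1316 and 388 at L0, then 146 and 154 at L20, 32.0 and 39.4 at PI2 and then 58.5 and 62.1 at PI7 and rose by 3.88 at L0 (SE 0.622, adjusted p = 0.0249, edgeR), from a mean of 76.0 ± 53.8 CPM (SD, n = 8) to 852 ± 656 CPM (SD, n = 2). Both L0 libraries lay above the other 8, and L0 replicate 1 held more than 3 times the level of L0 replicate 2. PLIN2, the coat protein of lipid droplets, measured 538 and 557 CPM at G90, 563 and 699.7 at L0, then 746 and 329 at L20, 422 and 328 at PI2 and then 249 and 345 at PI7. Of 19 genes of triglyceride synthesis and the fat globule that were tested, CD36 was called, 15 had a log2 change above 0, and the median was 0.68 (0.59 to 1.05 over all settings). De novo fatty acid synthesis had none of 19 called and a median of 0.05 (-0.06 to 0.29 over all settings). FASN, fatty acid synthase, measured 439.9 and 916 CPM at G90, 233 and 178 at L0, then 581 and 161 at L20, 590.2 and 407 at PI2 and then 260.1 and 406 at PI7, and both L0 values lay below all others but that of L20 replicate 2.

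Lactose synthesis had none of 10 genes called and a median of -0.67 (-0.74 to -0.15 over all settings). B4GALT1, the catalytic subunit of lactose synthase, measured 725 and 1095 CPM at G90, 422 and 587 at L0, then 252 and 257 at L20, 286 and 394 at PI2 and then 155 and 238 at PI7, and UGP2, which makes UDP-glucose, measured 227 and 440.4 CPM at G90, 739 and 342 at L0, then 1173 and 215 at L20, 127 and 725 at PI2 and then 175 and 129 at PI7. L20 replicate 1 and PI2 replicate 2 were high in UGP2, so that no stage was separated from the rest.

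Of 22 genes of calcium, phosphate and metal transport, 1 was called, 12 had an unadjusted p under 0.05 (14.7% of all genes did) and the median was 0.38 (0.21 to 0.52 over all settings). SLC30A2, the transporter that carries zinc into secretory vesicles for milk, measured 24.4 and 63.2 CPM at G90, 113 and 77.4 at L0, then 30.6 and 9.14 at L20, 2.77 and 4.80 at PI2 and then 3.86 and 3.93 at PI7. It rose by 3.31 at L0 (SE 0.483, adjusted p = 0.0191, edgeR), and both L0 libraries lay above all others while PI2 and PI7 stayed below 5 CPM. SLC34A2, the phosphate cotransporter, measured 330.0 and 793 CPM at G90, 368 and 551 at L0, then 61.5 and 198 at L20, 246 and 20.2 at PI2 and then 110.0 and 169 at PI7, with its lowest values in PI2 replicate 2 and L20 replicate 1.

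The prolactin and STAT5 list had none of 12 genes called and a median of 0.61. STAT5B measured 2197 and 1864 CPM at G90, 1805 and 1583 at L0, then 1104 and 870.2 at L20, 1708 and 908 at PI2 and then 604 and 1103 at PI7 and STAT5A 1158 and 1050.4 CPM at G90, 391 and 302 at L0, then 437 and 119 at L20, 669.6 and 467 at PI2 and then 151 and 329 at PI7. STAT5A was highest at G90 in both libraries, and neither gene peaked at L0. PRLR, the prolactin receptor, measured 2431 and 1493 CPM at G90, 564 and 651 at L0, then 243 and 1213 at L20, 2061 and 64.9 at PI2 and then 753 and 1372 at PI7, with its lowest values in PI2 replicate 2 and L20 replicate 1, the libraries of those stages with high XDH.

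Outside the lists, the largest rises at L0 included those of TAC4, SNTG1 and MGP, beside that of CD36. TAC4, a tachykinin precursor, measured 9.20 and 56.1 CPM at G90, 110.3 and 116 at L0, then 7.13 and 0 at L20, 2.96 and 3.05 at PI2 and then 5.47 and 5.90 at PI7 and rose by 4.16 (SE 0.627, adjusted p = 0.0198, edgeR). MGP, matrix Gla protein, an inhibitor of calcification, measured 163 and 479 CPM at G90, 2505 and 1581 at L0, then 64.99 and 127 at L20, 101 and 487 at PI2 and then 128 and 96.7 at PI7 and rose by 3.72 (SE 0.529, adjusted p = 0.0172, edgeR). SNTG1, a syntrophin, rose by 3.78 (adjusted p = 0.0198, edgeR). The L0 libraries lay above all 8 others in each, a condition for naming them. They did so in 3.80% of all genes tested and lay below all 8 in 9.67%.

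The largest falls at L0 included those of PMEPA1, SDC1, TRPV5 and SERPINE2. PMEPA1, a target and brake of TGF-beta signalling, measured 125 and 82.5 CPM at G90, 9.99 and 13.2 at L0, then 38.2 and 135 at L20, 159.6 and 67.5 at PI2 and then 243 and 241 at PI7 and fell by 3.13 on the log2 scale (SE 0.500, adjusted p = 0.0244, edgeR). SDC1, syndecan-1, measured 26.4 and 7.30 CPM at G90, 3.95 and 6.23 at L0, then 58.0 and 49.1 at L20, 52.7 and 45.2 at PI2 and then 107 and 61.0 at PI7 and fell by 2.84 (adjusted p = 0.0418, edgeR). TRPV5, an epithelial calcium channel, measured 11.2 and 5.24 CPM at G90, 3.33 and 3.42 at L0, then 30.0 and 44.5 at L20, 51.6 and 15.9 at PI2 and then 53.1 and 64.1 at PI7 and fell by 2.75 (adjusted p = 0.0314, edgeR). SERPINE2, a protease inhibitor, fell by 2.65 (adjusted p = 0.0418, edgeR). GCLC fell by 2.59 in the same comparison (adjusted p = 0.0149, edgeR), and G90 was the only other stage near the level of L0.

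TNFRSF1B, a receptor of tumour necrosis factor, was the called gene of the list for LIF, oncostatin and STAT3. It measured 15.4 and 6.72 CPM at G90, 5.83 and 2.81 at L0, then 37.4 and 37.7 at L20, 25.3 and 25.5 at PI2 and then 68.8 and 45.5 at PI7 and fell by 2.44 at L0 (SE 0.471, adjusted p = 0.0418, edgeR). The list as a whole had a median of -0.63 over 19 genes, which was -0.39 without L20 replicate 2 and PI2 replicate 2 and -0.83 to -0.22 over all settings. No gene was called in the lists for chaperones, amino acid transport, tight junctions, keratins, luminal progenitors, hormone sensing, cathepsins, apoptosis, NF-kappa-B, interferon, antigen presentation, antimicrobial proteins, cholesterol, growth factors, cell cycle, immediate early genes and mitochondrial genes, or for alveolar transcription factors. Their medians ran from -1.88 for interferon-stimulated genes, which were below 0 in 20 of 21 cases, to 0.29 for cholesterol synthesis (0.12 to 0.56 over all settings). Of the 21 interferon-stimulated genes, 1 had both L0 libraries below all others (9.67% of all genes did) and 1 an unadjusted p under 0.05 (14.7% of all genes), and their median was -1.001 without L20 replicate 2 and PI2 replicate 2 and -2.12 to -0.75 over all settings.

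**Figure D3:**
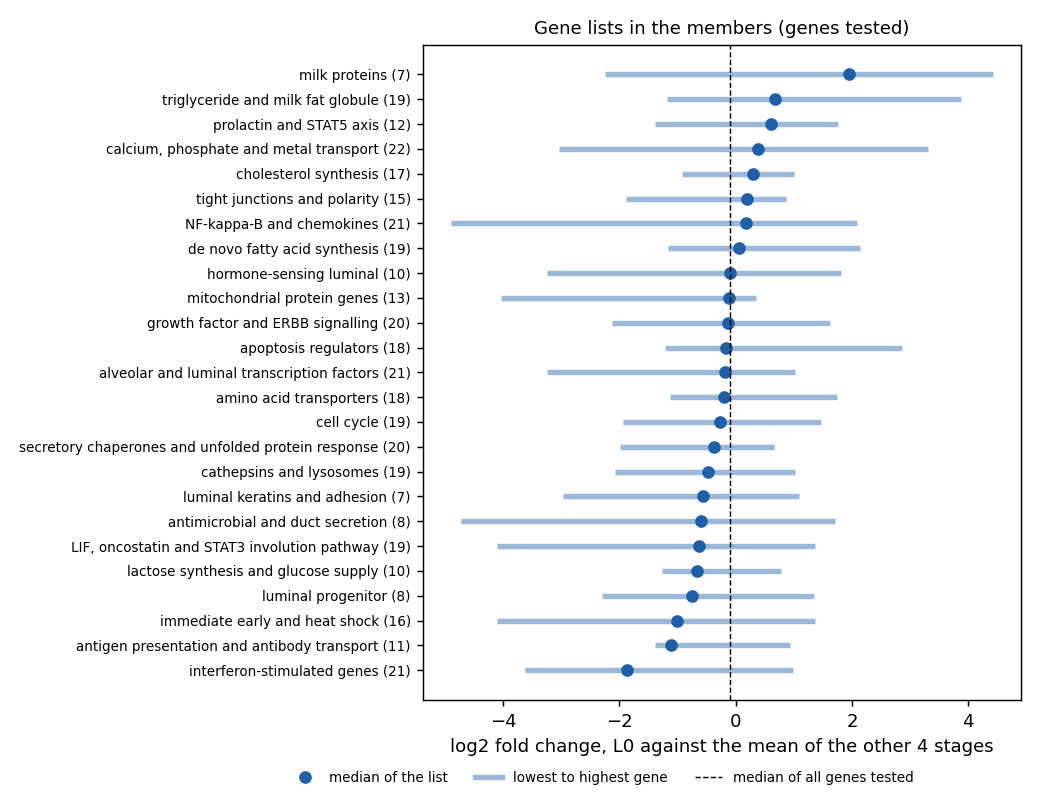
Log2 fold change of L0 against the mean of the other 4 stages in the members, by gene list, with the number of genes tested in parentheses. Points are list medians, bars run from the lowest to the highest gene, and the dashed line is the median of all genes tested (-0.09); milk proteins had the highest median (1.96) and interferon-stimulated genes the lowest (-1.88).

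RNA set free from broken cells reaches all nuclei of a library, so the change of a gene in the members was also tested against its change in other nuclei of the same libraries. The latter were 13176 non-epithelial nuclei with no UMI of EPCAM, XDH or ELF5 and at least 2 UMIs over COL1A1, PTPRB, CD163, CD3E and ADIPOQ. They were few at L0, with 76 and 54 nuclei, which held 101759 and 85081 UMIs. Their make-up varied between libraries. Those with at least 2 UMIs over CD163 and CD3E were 25 of 76 and 19 of 54 at L0. At PI2 they were 179 of 1020 in replicate 1 and 124 of 208 in replicate 2. The part of this varying make-up of the non-epithelial nuclei in the class differences was not tested. CSN3 measured 25.9 and 97.3 CPM at G90, 825 and 388 at L0, then 97.5 and 2.22 at L20, 22.9 and 97.9 at PI2 and then 11.9 and 16.3 at PI7 in these nuclei, and PAEP 1117 and 1367 CPM at G90, 5916 and 2468 at L0, then 294 and 5.12 at L20, 637 and 659 at PI2 and then 41.2 and 114 at PI7. Both milk genes thus stood highest at L0 outside the epithelium too, and the difference between the changes of members and other nuclei was not called for CSN3 (-1.19, adjusted p = 0.473, edgeR) or PAEP (-1.41, adjusted p = 0.398, edgeR). The part of free RNA in the higher levels of CSN3 and PAEP was not tested beyond this.

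FOXP2 was the gene whose rise from G90 to L0 was called both in the members and against the other nuclei. It measured 91.8 and 97.3 CPM at G90, 118 and 141 at L0, then 60.4 and 154 at L20, 56.2 and 34.4 at PI2 and then 95.5 and 77.6 at PI7 in non-epithelial nuclei, and the change in members exceeded theirs by 3.99 (SE 0.575, adjusted p = 0.00260, edgeR). With nuclei thinned to 1000 UMIs each, FOXP2 was seen in 4.46% and 2.30% of members at G90 and in 41.3% and 37.1% at L0, and in 6.19% and 3.61% against 9.30% and 3.03% of non-epithelial nuclei. Without thinning the members' shares were 10.4% and 5.19% at G90 and 53.8% and 49.6% at L0, where their median depth was lower (1844 and 1702 UMIs) than at G90 (3265 and 2337 UMIs). Non-epithelial nuclei had a median depth of 2009.5 and 1450.0 UMIs at G90 and 1126.5 and 1286.5 UMIs at L0. From G90 to L0, 37 of 16849 genes differed between the classes (0.220%), 31 with a higher change in the members (0.184%) and 6 with a lower one (0.0356%), while 1500 had an unadjusted p under 0.05 (8.90%). ZBTB16, a zinc finger transcription factor induced by glucocorticoids, measured 59.9 and 19.6 CPM at G90 and 795 and 534 at L0 in members and 475 and 215 CPM at G90 and 442 and 223 at L0 in other nuclei, a difference of 4.61 (SE 0.643, adjusted p = 0.00260, edgeR). FMO1, a flavin monooxygenase, differed by 4.61 (SE 0.721, adjusted p = 0.00372, edgeR), with 27.1 and 11.07 CPM at G90 and 452 and 120.2 at L0 in members and 172 and 497 CPM at G90 and 295 and 153 at L0 in other nuclei.

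COL4A1 and COL4A2, the chains of basement membrane collagen, had a lower change in the members, by differences of -3.25 (adjusted p = 0.0281, edgeR) and -2.72 (adjusted p = 0.0289, edgeR). COL4A2 measured 199 and 236 CPM at G90 and 58.4 and 40.6 at L0 in members and 621 and 563 CPM at G90 and 1071 and 1211 at L0 in other nuclei, so that it was lower at L0 in the former and higher in the latter. TM4SF1, a membrane protein of the tetraspanin type, differed by -3.16 (adjusted p = 0.0214, edgeR). LRRC4C differed by 4.66 (adjusted p = 0.0220, edgeR), with 2 UMIs in the non-epithelial nuclei of L0. ADAMTS7 and NR1D2 were called with no UMI there, so no fold is given. HTRA1 and NKD1, with differences of -2.38 and -3.35, were not called (adjusted p = 0.0536 and 0.0563, edgeR).

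From L0 to L20, 48 genes differed between the classes (0.285%), 29 with a higher (0.172%) and 19 with a lower change in the members (0.113%), while 1583 had an unadjusted p under 0.05 (9.40%). IL1R1 measured 452 and 423 CPM at L0 and 436 and 275 at L20 in non-epithelial nuclei, and its change in members exceeded theirs by 3.86 (SE 0.488, adjusted p = 0.000557, edgeR). CHSY3, a chondroitin sulfate synthase, measured 26.1 and 9.66 CPM at L0 and 526 and 812 at L20 in members and 147 and 199.8 CPM at L0 and 246 and 168 at L20 in other nuclei, a difference of 4.59 (SE 0.803, adjusted p = 0.0200, edgeR). CLU, clusterin, a secreted chaperone known from involution, measured 489 and 80.7 CPM at G90, 105 and 25.4 at L0, then 1379 and 1751 at L20, 503 and 3667 at PI2 and then 4851 and 1988 at PI7 in members and 142 and 92.2 CPM at G90, 579.8 and 141 at L0, then 1372 and 164 at L20, 202 and 836 at PI2 and then 751 and 643 at PI7 in other nuclei, a difference of 3.68 (SE 0.784, adjusted p = 0.0404, edgeR). IL1R1 and CLU were low in the members of both L0 libraries and above every L0 value in both L20 libraries.

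SYTL2 differed by 3.38 (adjusted p = 0.0404, edgeR), carried by L20 replicate 2, where it reached 93.6 CPM against 9.35 CPM in L20 replicate 1. CCL2 differed by 5.37 (adjusted p = 0.0404, edgeR), with 6 UMIs in the non-epithelial nuclei of L0. FMO1 and SNED1 had a lower change in the members, by differences of -3.78 (adjusted p = 0.0270, edgeR) and -3.76 (adjusted p = 0.0200, edgeR). SNED1 had 11 UMIs in the non-epithelial nuclei of L0. PRDM1, CNIH3 and NR1D2 had no UMI there, so no fold is given. No gene differed between the classes from L20 to PI2 (647 at an unadjusted p under 0.05, 3.84%) or from PI2 to PI7 (509, 3.02%) by edgeR's quasi-likelihood test, the only tool run on this difference.

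At L0 against the other 4 stages, 45 genes differed between the classes (0.267%), 21 with a higher (0.125%) and 24 with a lower change in the members (0.142%). KYNU, an enzyme of tryptophan breakdown, measured 35.0 and 78.6 CPM at G90, 184 and 231 at L0, then 19.7 and 60.5 at L20, 7.70 and 11.9 at PI2 and then 28.6 and 46.1 at PI7 in members and differed by 3.24 (SE 0.469, adjusted p = 0.00282, edgeR). FMO1 and SNED1 differed by 3.56 and 3.25 (adjusted p = 0.00706 for each, edgeR). CLU (-3.70, adjusted p = 0.00982), CNN3 (-2.90, adjusted p = 0.00957), TM4SF1 (-2.72, adjusted p = 0.0120), TNFRSF1B (-2.59, adjusted p = 0.0342) and PDLIM1 (-2.39, adjusted p = 0.0497) had a lower change in the members by edgeR. TNFRSF1B, called lower at L0 within the members, measured 63.3 and 113 CPM at G90, 167 and 141 at L0, then 138 and 127 at L20, 80.9 and 217 at PI2 and then 162 and 190.0 at PI7 in other nuclei, where the L0 values lay within the range of the other stages. PRDM1 and NR1D2 again lacked UMIs in non-epithelial nuclei at L0. CD36 (2.72, adjusted p = 0.0872), MGP (2.14, adjusted p = 0.0636) and PMEPA1 (-2.85, adjusted p = 0.0742) missed the threshold by edgeR, while PDE7A passed it (2.03, adjusted p = 0.0221).

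**Figure D4:**
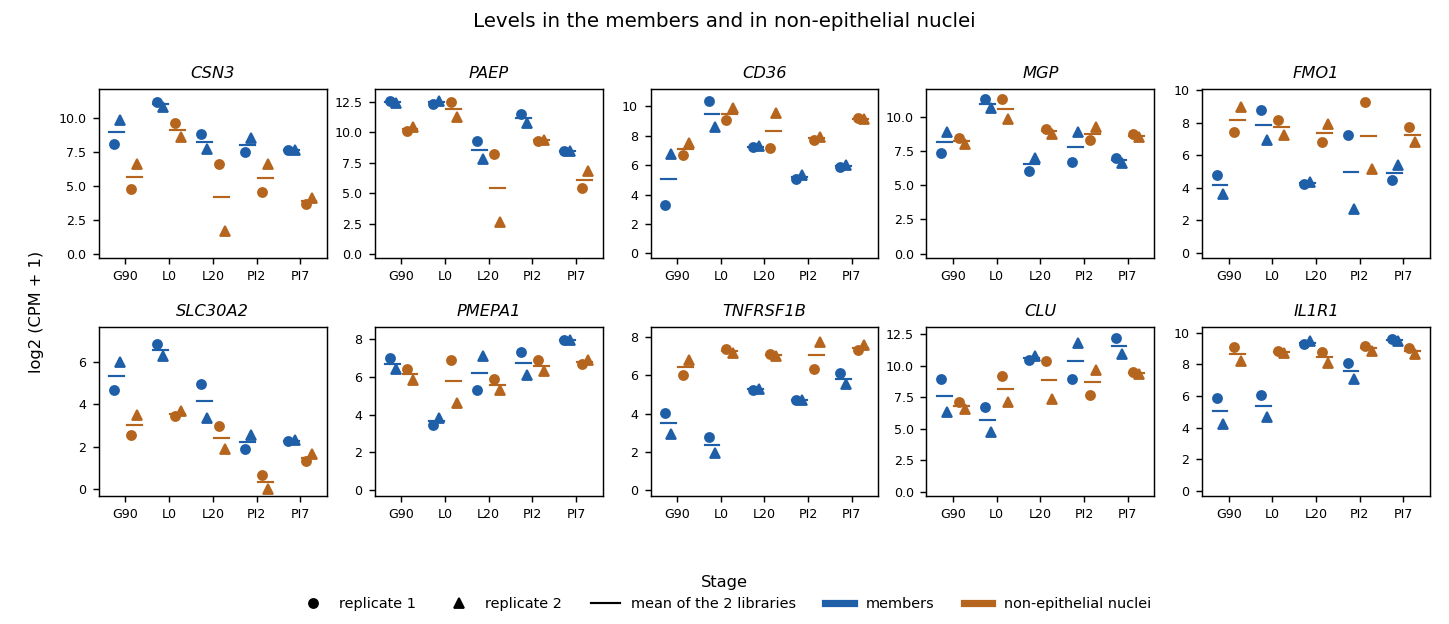
Levels of 10 genes in the members (blue) and non-epithelial nuclei (brown) of the same libraries, as log2 (CPM + 1) by stage. Circles are replicate 1, triangles replicate 2, and lines the mean of the 2 libraries; CSN3 was highest at L0 in both classes and PAEP at L0 in the non-epithelial nuclei, while IL1R1 and CLU were lower at L0 in the members than at L20 and TNFRSF1B lay between 63.3 and 217 CPM in non-epithelial nuclei.

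These class differences also rested on few libraries. With immune nuclei alone as the reference, which left 1 library at L0, 1 of the 28 named differences that were called stayed called in the same direction, 21 lost the call and 6 turned in sign, among them those of COL4A2, CHSY3, IL1R1, CLU and PDLIM1. Of the same 28, 12 lost the call with thinning to 1000 UMIs and 8 with doublets removed. From G90 to L0 there were 2 calls without L0 replicate 1 and 8 without L0 replicate 2, and 90 to 314 without G90 replicate 2 or any 1 library of L20, PI2 or PI7. From L0 to L20 there were 0 without L0 replicate 2 and 31 without L0 replicate 1, and 108 to 344 without any 1 of the other 8. For L0 against the other 4 stages there were 0 without L0 replicate 2, 12 without L0 replicate 1 and 139 to 445 without any 1 of the other 8. From L20 to PI2, the removal of L20 replicate 1, L20 replicate 2, PI2 replicate 1, PI2 replicate 2, PI7 replicate 1 or PI7 replicate 2 gave 91, 35, 161, 24, 12 and 2 calls. From PI2 to PI7 there were 293 without PI2 replicate 1, 17 without L20 replicate 1, 15 without L20 replicate 2, 5 without PI7 replicate 1, 2 without PI2 replicate 2 and 1 without G90 replicate 1.

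Markers of other cell types had RNA in the members at levels that varied between libraries. Of 9 fibroblast markers listed, 8 were found by symbol. They summed to 192 and 61.2 CPM at G90, 79.5 and 25.9 at L0, then 188 and 345 at L20, 225 and 33.9 at PI2, and then 159 and 167 at PI7, against 3143 to 9494 CPM in non-epithelial nuclei. The sums were 24.0 to 142 CPM for macrophage markers (569 to 2576 CPM in non-epithelial nuclei), 110 to 350 for lymphocyte (609 to 2258), 156 to 399 for endothelial (783 to 3538) and 29.6 to 216 for adipocyte markers (51.2 to 714). Myoepithelial markers summed to 124 to 624 CPM against 133 to 914 CPM, and the members lay above the non-epithelial nuclei in both libraries of L20 and of PI2. COL1A1, CD163, CD3E, PTPRB, TP63 and ADIPOQ, the defining marker of each list, were at 0 by the rule. At L0 against the other 4 stages no marker was called, and the median was -1.37 over 7 fibroblast and -0.94 over 8 macrophage markers. The part of other cells in the falls at L0 was not tested.

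Several genes separated the libraries of L20 and of PI2. LBP, SOD2 and ALDH1A3 were chosen after their values were seen. NUPR1, a stress-induced chromatin protein, measured 29.4 and 125 CPM at G90, 1127 and 1146 at L0, then 596 and 59.4 at L20, 96.4 and 717 at PI2 and then 65.9 and 104 at PI7. STAT3, the transcription factor of involution, measured 167 and 192 CPM at G90, 467 and 488 at L0, then 1126 and 399.7 at L20, 335 and 1038 at PI2 and then 381 and 502 at PI7, and CXCL2, a chemokine of neutrophils, measured 144 and 154 CPM at G90, 1326 and 1036 at L0, then 3517 and 395 at L20, 1027 and 3055 at PI2 and then 542 and 1095 at PI7. In each, L20 replicate 1 and PI2 replicate 2 lay above the other library of their stage, in STAT3 by more than 2-fold.

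LBP, an acute phase protein that binds lipopolysaccharide, measured 7.19 and 15.8 CPM at G90, 231 and 164 at L0, then 1304 and 203 at L20, 17.2 and 956 at PI2 and then 189 and 189 at PI7. SOD2, the mitochondrial superoxide dismutase, measured 99.5 and 62.9 CPM at G90, 197 and 203 at L0, then 662 and 115 at L20, 149 and 1170.5 at PI2 and then 158 and 188 at PI7. Both were highest in L20 replicate 1 and PI2 replicate 2. KIT, a receptor of luminal progenitors, measured 555 and 312 CPM at G90, 878 and 1486 at L0, then 179 and 517 at L20, 1437 and 95.0 at PI2 and then 1110.3 and 876 at PI7, and ALDH1A3, which makes retinoic acid in the same cells, measured 76.1 and 12.003 CPM at G90, 40.5 and 32.7 at L0, then 533 and 246 at L20, 406 and 47.4 at PI2 and then 596 and 584 at PI7. KIT and PRLR were lowest in those same libraries of L20 and PI2, and ALDH1A3 was low in PI2 replicate 2 but not in L20 replicate 1.

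**Figure D5:**
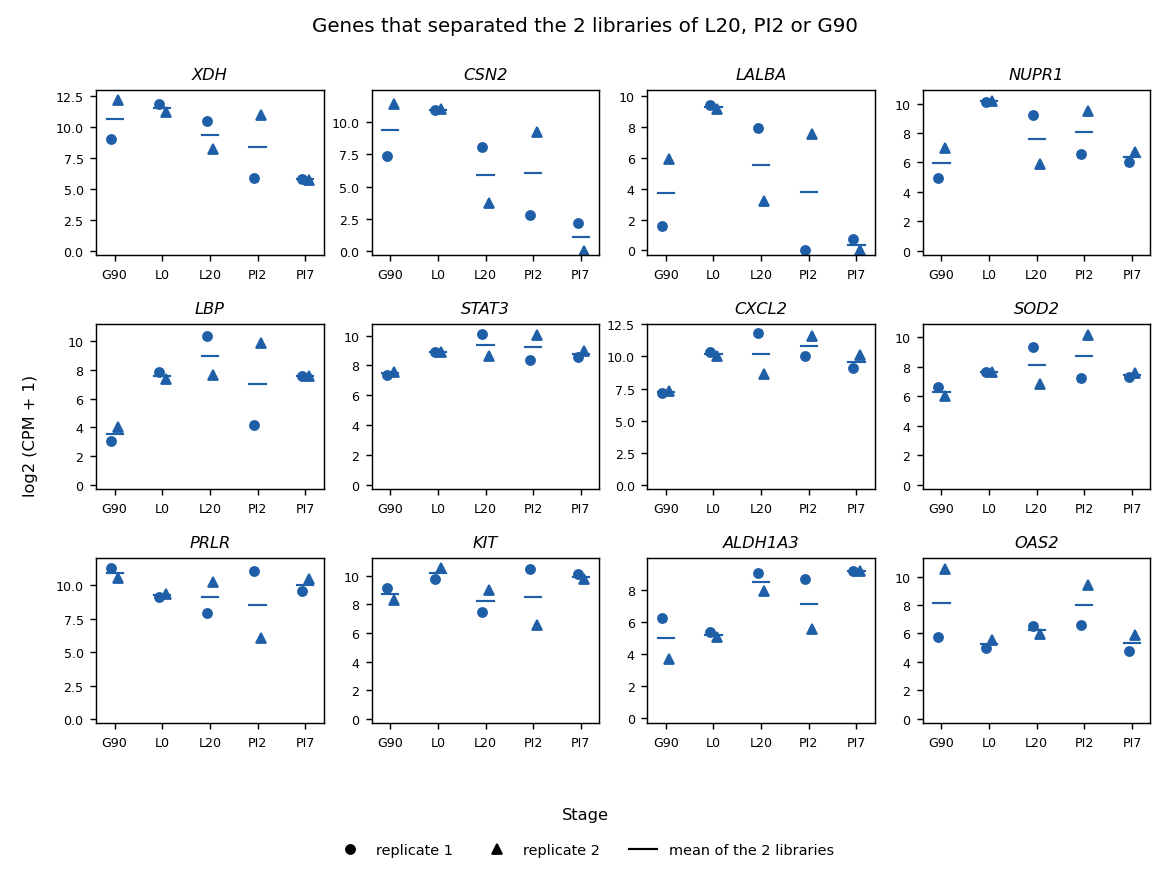
Levels of 12 genes in the members as log2 (CPM + 1) by stage; circles are replicate 1, triangles replicate 2, and lines the mean of the 2 libraries. XDH, NUPR1, LBP, STAT3, CXCL2 and SOD2 were higher in L20 replicate 1 and PI2 replicate 2 than in the other library of the stage, PRLR and KIT were lower, and OAS2 reached 1458 CPM in G90 replicate 2.

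The genes whose levels followed XDH most closely over the 10 libraries were CSN2 (Pearson's r = 0.971 of log2 values), LPIN1 (0.957), ENTPD6 (0.956), ATP2C2 (0.940) and MTUS1 (0.927). The 10 points share the stage and the library split described above, and XDH took part in choosing the members. LPIN1, a phosphatidic acid phosphatase of triglyceride synthesis, measured 43.2 and 82.9 CPM at G90, 98.7 and 78.1 at L0, then 88.8 and 50.2 at L20, 31.0 and 80.7 at PI2 and then 36.0 and 28.7 at PI7. ATP2C2, the calcium pump of the secretory pathway, measured 129 and 307 CPM at G90, 462 and 164 at L0, then 108 and 65.1 at L20, 46.4 and 201 at PI2 and then 28.6 and 44.1 at PI7. In LPIN1, both L0 libraries, G90 replicate 2, L20 replicate 1 and PI2 replicate 2 lay above the other 5 libraries.

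Hormone receptor luminal nuclei, taken as EPCAM-positive nuclei with a UMI of ESR1 or PGR and none of the other excluding genes, numbered 5436. They share libraries with the members and held more UMIs per nucleus in each, and no test of the difference was run. In L0 replicate 1, 850 of them held 3409302 UMIs, against 14419731 UMIs in 6543 members. Doublets and secretory nuclei with a UMI of ESR1 or PGR could also meet these conditions. Their part in the hormone receptor luminal nuclei was not tested. XDH measured 315 and 4631 CPM at G90, 4139 and 3236 at L0, then 690.3 and 263 at L20, 21.3 and 771 at PI2 and then 21.4 and 22.5 at PI7 in them, CSN3 209.6 and 924 CPM at G90, 2618 and 1928 at L0, then 320.3 and 209 at L20, 102 and 235 at PI2 and then 119.7 and 116 at PI7 and FOXP2 65.9 and 21.9 CPM at G90, 778 and 561 at L0, then 469 and 393 at L20, 64.5 and 67.7 at PI2 and then 246 and 187 at PI7. XDH thus differed between the 2 libraries of L20 and of PI2 in the same direction as in the members, and both L0 libraries lay above all others in CSN3 and FOXP2. GCLC measured 25.6 and 16.5 CPM at G90, 15.3 and 22.5 at L0, then 139.9 and 186 at L20, 244 and 166 at PI2 and then 243 and 345 at PI7, and PRLR 3367 and 1678 CPM at G90, 723 and 953 at L0, then 716 and 1772 at L20, 3328 and 1508 at PI2 and then 1822 and 1628 at PI7, with PRLR in PI2 replicate 2 at 1508 CPM against 64.9 CPM in the members.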

How the data were processed

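Single-nucleus libraries of 10 pig mammary glands were used, and 2 single-cell libraries of milk served for a side description. The authors counted UMIs per gene and barcode with CeleScope 1.1.7 on Sscrofa11.1 and deposited them as raw counts, without normalization, removal of free RNA or removal of doublets. For the annotation release, the sources used here give no name. Symbols came from the files for 15476 genes and from the reference for 645, and 12658 had none. CSN1S1 has no symbol in the files and was matched by its identifier. With symbols of the files alone the rule found 27746 members.

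The members, the 31 gene lists and the comparisons were chosen with earlier results of these data known. Nuclei needed at least 300 genes, no mitochondrial limit was set, and doublets were kept. UMIs were summed over the members of each library and tested with edgeR 4.0.16 (TMM, filterByExpr, glmQLFit and glmQLFTest) in 1 fit on stage, with Benjamini-Hochberg adjustment over 16640 genes. The 14 genes of the rule stayed in the library sizes and got no test. The difference between members and non-epithelial nuclei was tested on 2 sums per library, with the library as a block and a term of class by stage, over 16849 genes. Both fits were tested on simulated data with 200 genes changed by 2 on the log2 scale at L0, for L0 against the other 4 stages. At a biological coefficient of variation of 0.463, that of the members, the fit of members recovered 82, and at 0.2 it recovered 200. For the class difference these values set a library effect shared by both classes. The counts were drawn around it with a smaller variation, and that fit recovered 56 and 106. Its coefficient of variation in the data was 0.266. The changed genes were drawn from those above a minimum mean level. False calls numbered 2 to 5. Recovery between adjacent stages was not measured.

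Named in each comparison were the 5 genes with the largest change in each direction among those called, with a symbol, libraries that do not overlap and at least 20 CPM, filled by the smallest unadjusted p where fewer were called. From each list the called genes (up to 6) and the 3 of highest level could be named, and 5 genes closest to XDH by Pearson's r. For the test over the 5 stages all called genes with a symbol were eligible, and LBP, SOD2 and ALDH1A3 were added with their values known. Some genes that these rules name are not reported here.

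The alternatives tried were a rule without milk genes, at least 500 genes with at most 5% mitochondrial UMIs, Scrublet (scanpy 1.11.5), thinning to 1000 UMIs, DESeq2 1.42.0, no filter on low counts, a fit of only the 2 stages in question, a block on the replicate number, immune nuclei as the reference, and each library left out. Scrublet's own threshold marked no nucleus in most libraries, so nuclei above the 95th percentile of the score in each library were removed. Chosen after the data were seen were the rule with symbols of the files alone and the removal of both L20 replicate 2 and PI2 replicate 2.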

Additional observations from a re-analysis of the deposited data

Results flagged for a closer look

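The results here are genes whose change between stages differed between the members and non-epithelial nuclei of the same libraries by a test of the difference itself (edgeR, adjusted p under 0.05), given as the log2 change in members minus that in non-epithelial nuclei. The make-up of the non-epithelial nuclei varied between libraries, and its part in these differences was not tested.

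For L0 against G90 the difference was 4.66 for LRRC4C, 4.61 for FMO1, 4.61 for ZBTB16, -3.25 for COL4A1, -3.16 for TM4SF1 and -2.72 for COL4A2. For L20 against L0 it was 5.37 for CCL2, 4.59 for CHSY3, 3.86 for IL1R1, 3.68 for CLU, 3.38 for SYTL2, -3.78 for FMO1 and -3.76 for SNED1. For L0 against the other 4 stages it was 3.56 for FMO1, 3.25 for SNED1, 3.24 for KYNU, -3.70 for CLU, -2.90 for CNN3, -2.72 for TM4SF1, -2.59 for TNFRSF1B and -2.39 for PDLIM1. LRRC4C, CCL2 and SNED1 rested on 2, 6 and 11 UMIs in the non-epithelial nuclei of L0. KYNU, CNN3, SYTL2, TNFRSF1B, PDLIM1, CHSY3 and TM4SF1 had 25 to 34 there. The calls of LRRC4C, CCL2, TM4SF1 (in both comparisons) and PDLIM1 were lost with thinning to 1000 UMIs. With doublets removed, the calls of COL4A2 in L0 against G90, of CCL2, CLU, SYTL2 and FMO1 in L20 against L0, and of TNFRSF1B and PDLIM1 in L0 against the others were lost. With immune nuclei as the reference, which left 1 library at L0, the sign turned for COL4A2 in L0 against G90, for CHSY3, IL1R1 and CLU in L20 against L0, and for CLU and PDLIM1 in L0 against the others.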

How the results depend on the processing

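How many genes were called depended strongly on the libraries and the test. The sum of UMIs over the members was lowest in L20 replicate 2, where a count of 0 allows up to 3.43 CPM (3 counts). For any difference between the stages (11 genes), DESeq2 called 1467, no filter on low counts 2071, thinning 57, the rule without milk genes 38, the stricter quality limits 24, symbols of the files alone 23, and the fit without L20 replicate 2 and PI2 replicate 2 called 1781. For L0 against the other 4 stages (197) the counts were 867 with DESeq2, 1102 with no filter, 321 with thinning and 1092 without those 2 libraries. For L0 against G90 (1) they were 589, 649, 37 and 738, and 1004 with only the libraries of the 2 stages. For L20 against L0 (0), DESeq2 called 452, no filter 674, only the 2 stages 2, and the fit without those 2 libraries 815. For PI2 against L20 (0) they were 10 (DESeq2), 74 (no filter) and 56 (without those libraries), and for PI7 against PI2 (0) 8, 132 and 1. Leaving out 1 library at a time gave 0 to 562 genes for any difference, 1 to 508 for L0 against the other stages, 0 to 123 for L0 against G90, 0 to 66 for L20 against L0, 0 to 0 for PI2 against L20 and 0 to 1 for PI7 against PI2. Of the 197 genes, 195 were also called by DESeq2.

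For the difference between members and non-epithelial nuclei, counts for L0 against G90 (37), L20 against L0 (48), PI2 against L20 (0), PI7 against PI2 (0) and L0 against the others (45) became 402, 184, 151, 5 and 401 without those 2 libraries and 281, 263, 24, 9 and 372 with no filter. With immune nuclei as the reference they were 19, 25, 112, 22 and 20, and of the 28 named differences called, 1 stayed called, 21 lost the call and 6 turned. Of the same 28, 12 lost the call with thinning, 8 without doublets, 6 with stricter limits, 5 with symbols of the files alone, 2 without milk genes in the rule, 1 without L20 replicate 2 and PI2 replicate 2, and 0 with no filter. L0 against G90 gave 64 without milk genes in the rule, 83 with stricter limits, 87 with thinning and 59 with symbols of the files alone. L0 against the others gave 78 with stricter limits and 74 with thinning, PI2 against L20 gave 1 with each, and L20 against L0 gave 25 without doublets. With 1 library left out, the ranges were 2 to 314, 0 to 344, 0 to 161, 0 to 293 and 0 to 445. Immune nuclei left 1 library at L0, since L0 replicate 2 held 19, and with them the sign turned for COL4A2 (9.17) and NKD1 (5.82) in L0 against G90, CHSY3 (-6.31), IL1R1 (-8.36) and CLU (-9.47) in L20 against L0, SH3GL2 (-6.36) in PI7 against PI2, and CLU (9.46) and PDLIM1 (7.99) in L0 against the others. In the comparisons with L0, the immune reference there was 25 nuclei of L0 replicate 1, and their UMIs of these genes are not reported here. The cause was not tested.

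The share of members at L0 (57.2%) was 41.7% without milk genes, 59.1% with stricter limits, 64.8% with thinning and 47.1% with symbols of the files alone. G90 replicate 2 lay above both L0 libraries without milk genes (45.3% against 44.8% and 38.6%) and with thinning (70.3% against 69.0% and 60.6%). With symbols of the files alone it lay above L0 replicate 2 (45.6% against 45.3%). Same-numbered libraries did not deviate together (correlations of -0.364 to 0.236 over 10 pairs of stages, 3 above 0.1), so the replicate numbers do not pair them. With the replicate number as a block, 0 genes were called for any difference and 54 for L0 against the other stages, 51 of them higher at L0. The median change over all genes for L0 against G90 was -0.147 with the scaling of edgeR and -0.0809 with that of DESeq2.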

Other observations

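The rule was also applied to the cells of milk, with 1 library at L0 and 1 at L20 and thus no replicates. It found 4354 of 17630 cells with at least 300 genes at L0 (24.7%) and 1019 of 14554 at L20 (7.00%). Milk protein genes took a large part of their UMIs, with CSN2 at 118804 and 130564 CPM at L0 and L20, PAEP at 122712 and 120698, CSN3 at 37251 and 32094 and LALBA at 26781 and 32171. XDH stood at 1243 and 934 CPM and ELF5 at 552 and 517. FOXP2, called higher at L0 in nuclei, stood at 7.07 and 3.59 CPM, and GCLC at 8.89 and 10.5. CLU stood at 73.4 CPM at L0 and 601 CPM at L20. Whole cells and nuclei hold different RNA, and no comparison was made between them.

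FDCSP, a secreted protein of the antimicrobial list, reached 480 CPM in L20 replicate 1 and 105 CPM in PI2 replicate 2 and at most 18.5 CPM in the other 8 gland libraries. MX1, an interferon-stimulated gene chosen after its values were seen, reached 781 CPM in G90 replicate 2 and 310 CPM in PI2 replicate 2, against 4.68 and 7.11 CPM in the other library of those stages.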
